A study of Mus musculus with 15 samples.

Results

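Mouse blood progenitors of the embryo and of the adult differ in a small set of genes linked to the RNA-binding protein LIN28B. The genes described here are 8 genes of this axis or paralogs of them, all with a value in the deposited table of 17454 genes. *Lin28a* and *Lin28b* encode the LIN28 proteins, and *Hmga1* and *Hmga2* encode chromatin proteins with AT-hooks. *Igf2bp1*, *Igf2bp2* and *Igf2bp3* encode binders of *Igf2* and other mRNAs, and *Arid3a* encodes a transcription factor. The genes were chosen by name, and all 8 passed the filter on low values in every comparison. They and the lists read beside them were chosen with earlier results of these data known. LIN28 proteins bind precursors of the let-7 microRNAs (miRNAs) and block their maturation, and let-7 in turn binds sites in the 3′ UTRs of *Hmga2*, *Lin28b*, *Igf2bp1*, *Igf2bp3*, *Arid3a* and other mRNAs and lowers their output. In mouse blood, LIN28B is high in fetal progenitors and low in adult ones, and its presence in adult progenitors brings back fetal traits. EZH2 is the main catalytic subunit of the polycomb repressive complex PRC2, which trimethylates histone H3 at lysine 27, and has been linked to *Lin28b* in blood progenitors of different ages.

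Erythro-myeloid progenitors (EMPs), the transient progenitors that the yolk sac (YS) makes ahead of hematopoietic stem cells, were profiled by RNA-seq in 15 libraries of stage E10.5. All embryos were C57BL/6 and homozygous for a floxed *Ezh2* allele (*Ezh2* fl/fl), each library came from an individual YS, and the cells had been sorted as lineage-negative, SCA1-negative cells positive for KIT, CD16/32 and CD41. The 3 Tie2-Ezh2-WT and the 2 Vav-Ezh2-WT libraries carried no Cre, the 5 Tie2-Ezh2-KO libraries carried 1 Tie2-Cre transgene (Tg/+), which acts in endothelium and hence in the blood that arises from it, and the 5 Vav-Ezh2-KO libraries carried 1 Vav-Cre transgene (Tg/+), which acts in blood cells. The endothelium around the Tie2-Ezh2-KO EMPs was thus a target of the deletion too. The Vav transgene is written Vav-Cre here, and the paper names it *Vav*-iCre. Libraries are given below in the order of their replicate numbers, 4, 10 and 12 for Tie2-Ezh2-WT, 4 and 6 for Vav-Ezh2-WT, 7, 9, 11, 13 and 17 for Tie2-Ezh2-KO, and 1, 9, 10, 26 and 28 for Vav-Ezh2-KO.

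Levels are in RPKM, in which reads are divided by gene length and by library depth, so that levels of different genes can be compared per length. Reads on genes came to between 10407398 and 41025074 per library, with a median of 16091836, and the least covered of the 8 genes, *Lin28a*, had 27 to 150 reads in a library. For orientation, *Igf2bp2*, *Lin28b* and *Hmga2* had 1211 to 6255, 669 to 3403 and 429 to 1455 reads in a library.

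The allele that defines the groups was read first. *Ezh2* (chr6:47530274-47595270 in GRCm38) stood at 36.9, 39.5 and 30.1 RPKM in Tie2-Ezh2-WT and at 42.0 and 41.5 RPKM in Vav-Ezh2-WT. Tie2-Ezh2-KO libraries held 27.8, 26.2, 24.8, 29.5 and 26.5 RPKM of *Ezh2*, and Vav-Ezh2-KO libraries held 33.7, 42.4, 37.8, 38.1 and 34.0 RPKM. Each Tie2-Ezh2-KO library was lower than any WT library, whereas the Vav-Ezh2-KO libraries lay within or above the WT range. Here and below, the share of all genes whose groups separate without overlap was not counted. Against the 5 WT libraries the log2 change of *Ezh2* was -0.48 (SE 0.12, limma adjusted p = 0.0418) in Tie2-Ezh2-KO, with an exact two-sided permutation p of 0.00794, the smallest that 252 ways to divide 10 libraries can give. The limma call was a narrow one, since it was lost in 5 of 11 alternative analyses (adjusted p up to 0.344, with WT of the same Cre line) and its adjusted p reached 0.126 when single libraries were left out. Over those 11 analyses the log2 change ran from -0.50 to -0.39. Against Tie2-Ezh2-WT alone the exact two-sided permutation p was 0.0179, the smallest that 56 ways allow. In Vav-Ezh2-KO against the 5 WT libraries the log2 change of *Ezh2* was -0.023 (SE 0.11, limma adjusted p = 0.969), with a 95% confidence interval of -0.25 to 0.21. All 3 Tie2-Ezh2-WT libraries lay below both Vav-Ezh2-WT libraries, and the interaction, in which each knockout is compared with its own WT and the Vav effect is taken from the Tie2 effect, was -0.22 (SE 0.18, limma adjusted p = 0.972). Group means of *Ezh2* ± SD, from high to low, were 41.7 ± 0.331 RPKM (Vav-Ezh2-WT, n = 2), 37.2 ± 3.56 RPKM (Vav-Ezh2-KO, n = 5), 35.5 ± 4.85 RPKM (Tie2-Ezh2-WT, n = 3) and 27.0 ± 1.78 RPKM (Tie2-Ezh2-KO, n = 5), and the first and the last of these steps were wider than the larger SD of their pair. The values cover the whole gene, so the exons of the catalytic SET domain that Cre removes were not read apart, and a deletion that leaves the rest of the transcript in place would not appear in them. By quantitative PCR, the paper found expression of the deleted *Ezh2* exon lost in EMPs of both knockouts. With a reporter, it found near-complete recombination in YS EMPs by both Cre lines.

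The sorted cells carried the RNAs of EMPs. All 11 EMP markers, *Kit*, *Itga2b*, *Fcgr3*, *Fcgr2b*, *Ptprc*, *Runx1*, *Myb*, *Gata2*, *Gfi1b*, *Spi1* and *Csf1r*, were above 0 in every library, with *Gfi1b*, a repressor needed for red cells and platelets, the most abundant by group mean. The markers summed to 628, 757 and 656 RPKM in Tie2-Ezh2-WT, 754 and 659.6 RPKM in Vav-Ezh2-WT, 815, 700.1, 744, 691 and 761 RPKM in Tie2-Ezh2-KO and 719.6, 724, 558, 695 and 621 RPKM in Vav-Ezh2-KO. Of those 11 genes 0 were called by limma in either knockout against WT, with 4 at an unadjusted p under 0.05 in Tie2-Ezh2-KO and 1 in Vav-Ezh2-KO, where 2.73% and 0.00733% of all genes were called and 10.97% and 7.93% had such a p. Between the knockouts limma called 3.51% of all genes and 1 of these 11, *Gfi1b*, higher in Tie2-Ezh2-KO by 0.57 (SE 0.13, limma adjusted p = 0.0300) on the log2 scale, a call lost in 3 of 9 alternative analyses (adjusted p up to 0.205, with a common median) and without some single libraries (up to 0.0833).

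Ordered by mean level per length over the 15 libraries, *Igf2bp2* led at 32.3 RPKM, followed by *Igf2bp3* at 26.6 RPKM and *Lin28b* at 13.6 RPKM. *Hmga2* and *Igf2bp1* came next at 9.44 and 8.71 RPKM, and *Hmga1*, *Arid3a* and *Lin28a* followed at 1.64, 1.49 and 0.997 RPKM. The set thus falls into 5 genes of middling to high level and 3 near the level of 1 RPKM, and in each of the 15 libraries *Igf2bp1* exceeded *Hmga1* in RPKM. Within the tiers *Igf2bp3* exceeded *Lin28b* in 15 of 15 libraries, *Lin28b* exceeded *Hmga2* in 13 of 15, and *Arid3a* exceeded *Lin28a* in 13 of 15. Other steps were less fixed, since *Igf2bp2* exceeded *Igf2bp3* in 9 of 15 libraries, namely all 8 of the Tie2 line and 1 of 7 of the Vav line, *Hmga2* exceeded *Igf2bp1* in 10 of 15, and *Hmga1* exceeded *Arid3a* in 10 of 15. By mean RPKM, *Igf2bp2* ranked above 82.5% of all genes in the table, *Lin28b* above 72.4% and *Lin28a* above 43.3%.

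**Figure D1:**
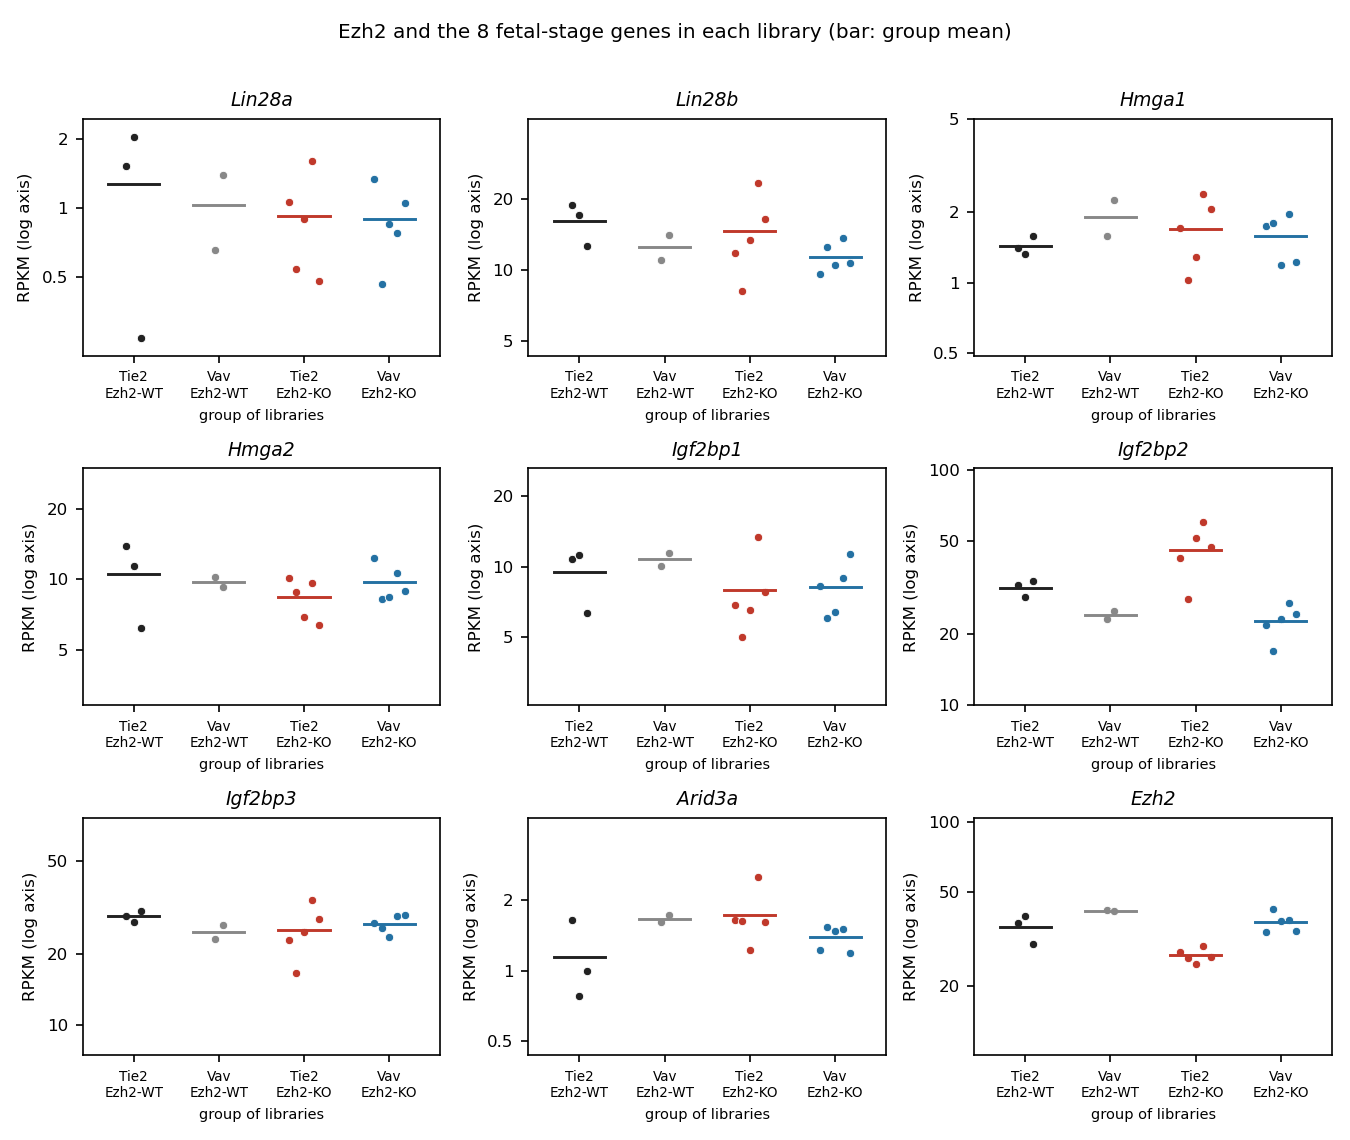
Level of *Ezh2* and of the 8 genes in each library, in RPKM on a log axis, by group; points are libraries (5 of each knockout, 3 and 2 of the WT of the Tie2 and Vav lines) and bars are group means. *Igf2bp2* is the gene whose Tie2-Ezh2-KO libraries all lie above all Vav-Ezh2-KO libraries, and *Ezh2* the gene whose Tie2-Ezh2-KO values are each lower than any WT value.

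Of the LIN28 genes, *Lin28b* was the more abundant. *Lin28b* stood at 18.8, 17.2 and 12.7 RPKM in the Tie2-Ezh2-WT libraries and at 10.99 and 14.1 RPKM in the Vav-Ezh2-WT libraries. With *Ezh2* deleted, *Lin28b* was at 11.8, 8.10, 13.4, 23.5 and 16.5 RPKM under Tie2-Cre and at 9.58, 12.5, 10.46, 13.7 and 10.7 RPKM under Vav-Cre. The highest library, at 23.5 RPKM, and the lowest, at 8.10 RPKM, both came from Tie2-Ezh2-KO, so that group spanned all the others. Mean *Lin28b* was 14.8 ± 3.21 RPKM (SD, n = 5) without Cre, 14.7 ± 5.79 RPKM (SD, n = 5) with Tie2-Cre and 11.4 ± 1.66 RPKM (SD, n = 5) with Vav-Cre. Its log2 change against WT was -0.071 (SE 0.24, limma adjusted p = 0.972) in Tie2-Ezh2-KO, with a 95% confidence interval of -0.59 to 0.45. In Vav-Ezh2-KO it was -0.35 (SE 0.16, limma adjusted p = 0.62), with an unadjusted p of 0.0419 that did not pass the adjustment and 3 of 5 libraries below all WT libraries. Against Vav-Ezh2-WT alone the log2 change in Vav-Ezh2-KO was -0.14 (exact two-sided permutation p = 0.429). Against Tie2-Ezh2-WT alone that in Tie2-Ezh2-KO was -0.21 (exact p = 0.554). Group means of *Lin28b* ± SD, from high to low, were 16.2 ± 3.17 RPKM (Tie2-Ezh2-WT, n = 3), 14.7 ± 5.79 RPKM (Tie2-Ezh2-KO, n = 5), 12.6 ± 2.22 RPKM (Vav-Ezh2-WT, n = 2) and 11.4 ± 1.66 RPKM (Vav-Ezh2-KO, n = 5), and no step in that order was wider than the larger SD of its pair. In a bulk library, fewer cells that express a gene and less of its RNA in each cell cannot be told apart.

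*Lin28a*, the paralog best known from pluripotent cells, was the scarcest of the 8 genes. *Lin28a* was measured at 1.52, 2.04 and 0.273 RPKM in the Tie2-Ezh2-WT libraries and at 0.656 and 1.397 RPKM in the Vav-Ezh2-WT libraries. In the knockouts it was at 1.06, 0.545, 0.892, 1.61 and 0.482 RPKM for Tie2-Ezh2-KO and at 1.33, 0.468, 0.852, 0.774 and 1.05 RPKM for Vav-Ezh2-KO. The Tie2-Ezh2-WT libraries held both the highest and the lowest value, and every group overlapped every other. Group means of *Lin28a* ± SD, from high to low, were 1.28 ± 0.906 RPKM (Tie2-Ezh2-WT, n = 3), 1.03 ± 0.524 RPKM (Vav-Ezh2-WT, n = 2), 0.918 ± 0.454 RPKM (Tie2-Ezh2-KO, n = 5) and 0.896 ± 0.322 RPKM (Vav-Ezh2-KO, n = 5), and no step in that order was wider than the larger SD of its pair. The log2 change against WT was -0.19 (SE 0.43, limma adjusted p = 0.956) in Tie2-Ezh2-KO and -0.18 (SE 0.40, limma adjusted p = 0.926) in Vav-Ezh2-KO. Of the summed RPKM of both LIN28 genes, *Lin28b* made up 93.0% ± 3.28 (SD, n = 5) in WT, 94.0% ± 1.97 (SD, n = 5) in Tie2-Ezh2-KO and 92.5% ± 3.32 (SD, n = 5) in Vav-Ezh2-KO. *Lin28b* was thus the LIN28 gene of these EMPs by level per length in all 15 libraries, whatever the genotype.

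The HMGA genes encode proteins that bend AT-rich DNA, and *Hmga2* is a classic let-7 target that supports the self-renewal of fetal stem cells. *Hmga2* stood at 13.9, 11.4 and 6.21 RPKM in the Tie2-Ezh2-WT libraries and at 10.2 and 9.29 RPKM in the Vav-Ezh2-WT libraries. Values after deletion were 10.2, 8.81, 6.93, 9.68 and 6.40 RPKM with Tie2-Cre and 12.3, 8.23, 8.38, 10.7 and 8.91 RPKM with Vav-Cre. The lowest values, 6.21, 6.40 and 6.93 RPKM, came from 1 Tie2-Ezh2-WT and 2 Tie2-Ezh2-KO libraries, so WT and knockout libraries overlapped. Group means of *Hmga2* ± SD, from high to low, were 10.52 ± 3.93 RPKM (Tie2-Ezh2-WT, n = 3), 9.76 ± 0.665 RPKM (Vav-Ezh2-WT, n = 2), 9.70 ± 1.76 RPKM (Vav-Ezh2-KO, n = 5) and 8.40 ± 1.67 RPKM (Tie2-Ezh2-KO, n = 5), and no step in that order was wider than the larger SD of its pair. The log2 change of *Hmga2* against WT was -0.25 (SE 0.21, limma adjusted p = 0.842) in Tie2-Ezh2-KO and -0.043 (SE 0.20, limma adjusted p = 0.969) in Vav-Ezh2-KO.

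*Hmga1* lay well below its paralog in level per length. *Hmga1* was measured at 1.41, 1.33 and 1.58 RPKM in the Tie2-Ezh2-WT libraries and at 1.58 and 2.25 RPKM in the Vav-Ezh2-WT libraries. Tie2-Ezh2-KO libraries gave 1.72, 1.02, 1.29, 2.39 and 2.07 RPKM and Vav-Ezh2-KO libraries 1.75, 1.804, 1.19, 1.95 and 1.23 RPKM. Tie2-Ezh2-KO held both the highest and the lowest library. Group means of *Hmga1* ± SD, from high to low, were 1.91 ± 0.479 RPKM (Vav-Ezh2-WT, n = 2), 1.70 ± 0.556 RPKM (Tie2-Ezh2-KO, n = 5), 1.58 ± 0.352 RPKM (Vav-Ezh2-KO, n = 5) and 1.44 ± 0.131 RPKM (Tie2-Ezh2-WT, n = 3), and no step in that order was wider than the larger SD of its pair. Its log2 change against WT was 0.019 (SE 0.28, limma adjusted p = 0.995) in Tie2-Ezh2-KO and -0.040 (SE 0.23, limma adjusted p = 0.977) in Vav-Ezh2-KO. *Hmga2* made up 85.4% ± 5.13 (SD, n = 5) of the summed RPKM of the HMGA pair in WT, 83.1% ± 5.35 (SD, n = 5) in Tie2-Ezh2-KO and 85.9% ± 2.59 (SD, n = 5) in Vav-Ezh2-KO.

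Among the IGF2BP genes, whose proteins stabilize, localize and control the translation of target mRNAs, *Igf2bp2* was the one with a called difference. *Igf2bp2* stood at 32.2, 28.8 and 33.5 RPKM in the Tie2-Ezh2-WT libraries and at 23.2 and 25.0 RPKM in the Vav-Ezh2-WT libraries. With *Ezh2* deleted, *Igf2bp2* was at 42.0, 28.2, 51.5, 59.8 and 46.8 RPKM under Tie2-Cre and at 21.9, 16.9, 23.1, 27.0 and 24.4 RPKM under Vav-Cre. In Tie2-Ezh2-KO, 4 of 5 libraries lay above all 5 WT libraries, and replicate 9, at 28.2 RPKM, lay within the WT range. All 5 Tie2-Ezh2-KO libraries lay above all 5 Vav-Ezh2-KO libraries. Means were 45.6 ± 11.8 RPKM (SD, n = 5) in Tie2-Ezh2-KO, 31.5 ± 2.44 RPKM (SD, n = 3) in Tie2-Ezh2-WT, 24.1 ± 1.25 RPKM (SD, n = 2) in Vav-Ezh2-WT and 22.7 ± 3.76 RPKM (SD, n = 5) in Vav-Ezh2-KO. Along that order each of the first 2 steps was wider than the larger SD of its pair, and the last step was not.

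Between the knockouts, *Igf2bp2* was higher in Tie2-Ezh2-KO by a log2 difference of 0.98 (SE 0.18, limma adjusted p = 0.00753), with a 95% confidence interval of 0.59 to 1.37 and an exact two-sided permutation p of 0.00794. Without any 1 of the 10 libraries the adjusted p stayed at or under 0.0237. In RPKM the mean was 2.01 times as high. Against the 5 WT libraries the log2 change in Tie2-Ezh2-KO was 0.64 (SE 0.18, limma adjusted p = 0.0809), which missed the threshold of 0.05 although the unadjusted p was 0.00286 and the exact permutation p was 0.0317. Leaving out replicate 9 of Tie2-Ezh2-KO, its lowest library, brought the adjusted p to 0.00511, and over the 10 libraries left out in turn it reached 0.213. In Vav-Ezh2-KO the log2 change against the same WT libraries was -0.33 (SE 0.14, limma adjusted p = 0.599), with an unadjusted p of 0.0310. Both comparisons share the WT libraries, so their values are given side by side and were not set against each other. Against Tie2-Ezh2-WT alone the log2 change in Tie2-Ezh2-KO was 0.49 (limma adjusted p = 0.486, exact two-sided permutation p = 0.125), and against Vav-Ezh2-WT alone that in Vav-Ezh2-KO was -0.10 (exact p = 0.619). The interaction, Tie2 effect minus Vav effect, was 0.60 (SE 0.29, limma adjusted p = 0.791) with a 95% confidence interval of -0.025 to 1.22. The WT groups themselves did not overlap, since all 3 Tie2-Ezh2-WT libraries lay above both Vav-Ezh2-WT libraries, with a mean ratio in RPKM of 1.31 and an exact two-sided permutation p of 0.100, the smallest that 3 libraries against 2 allow. Cre line and knockout therefore cannot be told apart in the direct comparison of the knockouts.

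*Igf2bp3* and *Igf2bp1* were not called in any comparison. *Igf2bp3* was measured at 29.1, 27.5 and 30.5 RPKM in the Tie2-Ezh2-WT libraries and at 23.1 and 26.5 RPKM in the Vav-Ezh2-WT libraries. In the knockouts it was at 23.1, 16.7, 24.9, 34.0 and 28.2 RPKM for Tie2-Ezh2-KO and at 27.1, 25.8, 23.7, 28.99 and 29.4 RPKM for Vav-Ezh2-KO. Again Tie2-Ezh2-KO held both extremes. Group means of *Igf2bp3* ± SD, from high to low, were 29.03 ± 1.51 RPKM (Tie2-Ezh2-WT, n = 3), 27.0 ± 2.37 RPKM (Vav-Ezh2-KO, n = 5), 25.4 ± 6.40 RPKM (Tie2-Ezh2-KO, n = 5) and 24.8 ± 2.42 RPKM (Vav-Ezh2-WT, n = 2), and no step in that order was wider than the larger SD of its pair. The log2 change of *Igf2bp3* against WT was -0.14 (SE 0.17, limma adjusted p = 0.897) in Tie2-Ezh2-KO and -0.017 (SE 0.10, limma adjusted p = 0.979) in Vav-Ezh2-KO.

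*Igf2bp1* encodes the member of the family best known for stabilizing *Myc* mRNA. *Igf2bp1* stood at 10.8, 11.2 and 6.37 RPKM in the Tie2-Ezh2-WT libraries and at 10.1 and 11.4 RPKM in the Vav-Ezh2-WT libraries. Values after deletion were 6.90, 5.04, 6.51, 13.4 and 7.82 RPKM with Tie2-Cre and 8.26, 6.08, 6.44, 8.99 and 11.3 RPKM with Vav-Cre. For *Igf2bp1*, 4 of 5 WT libraries lay between 10.1 and 11.4 RPKM and Tie2-Ezh2-WT replicate 12 lay at 6.37 RPKM. Group means of *Igf2bp1* ± SD, from high to low, were 10.8 ± 0.930 RPKM (Vav-Ezh2-WT, n = 2), 9.47 ± 2.69 RPKM (Tie2-Ezh2-WT, n = 3), 8.21 ± 2.11 RPKM (Vav-Ezh2-KO, n = 5) and 7.93 ± 3.22 RPKM (Tie2-Ezh2-KO, n = 5), and no step in that order was wider than the larger SD of its pair. The log2 change of *Igf2bp1* against WT was -0.37 (SE 0.24, limma adjusted p = 0.719) in Tie2-Ezh2-KO and -0.28 (SE 0.20, limma adjusted p = 0.741) in Vav-Ezh2-KO.

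The make-up of the family shifted with *Igf2bp2*. Of the summed RPKM of the 3 IGF2BP genes, *Igf2bp2* made up 44.6, 42.6 and 47.6% in Tie2-Ezh2-WT and 41.1 and 39.7% in Vav-Ezh2-WT. Its share was 58.3, 56.5, 62.1, 55.8 and 56.5% in Tie2-Ezh2-KO and 38.3, 34.6, 43.4, 41.6 and 37.5% in Vav-Ezh2-KO. All 5 Tie2-Ezh2-KO libraries thus lay above the 10 other libraries, including replicate 9, whose level of *Igf2bp2* in RPKM lay within the WT range. The mean share of *Igf2bp2* was 57.8% ± 2.57 (SD, n = 5) with Tie2-Cre, 43.1% ± 3.09 (SD, n = 5) without Cre and 39.1% ± 3.49 (SD, n = 5) with Vav-Cre. That of *Igf2bp3* was 32.3% ± 1.58 (SD, n = 5), 41.5% ± 1.23 (SD, n = 5) and 46.9% ± 3.58 (SD, n = 5) in the same order, and that of *Igf2bp1* was 9.90% ± 1.68 (SD, n = 5), 15.3% ± 3.73 (SD, n = 5) and 14.0% ± 2.08 (SD, n = 5). These shares were computed after the values had been seen, so they are a description without a test.

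**Figure D2:**
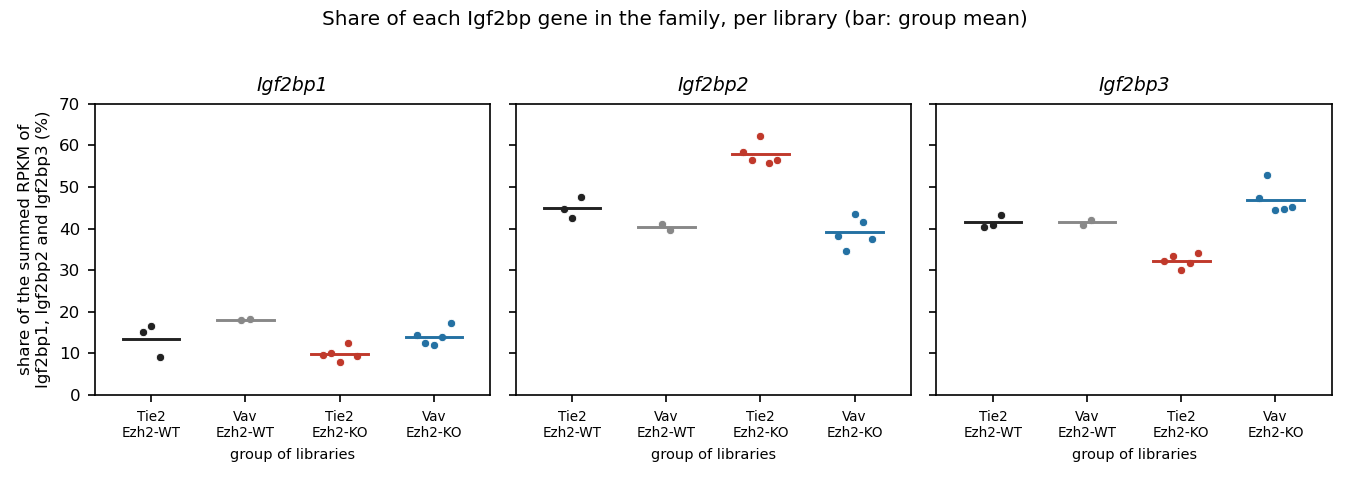
Share of each IGF2BP gene in the summed RPKM of *Igf2bp1*, *Igf2bp2* and *Igf2bp3*, in percent, in each library by group; points are libraries and bars are group means. The Tie2-Ezh2-KO libraries have the 5 highest shares of *Igf2bp2* among the 15 libraries, from 55.8% to 62.1%.

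*Arid3a*, a factor of B cell and fetal blood development, was the last of the 8. *Arid3a* stood at 1.64, 0.784 and 0.993 RPKM in the Tie2-Ezh2-WT libraries and at 1.61 and 1.72 RPKM in the Vav-Ezh2-WT libraries. Tie2-Ezh2-KO libraries gave 1.65, 1.63, 1.23, 2.50 and 1.61 RPKM and Vav-Ezh2-KO libraries 1.22, 1.54, 1.48, 1.501 and 1.19 RPKM. The lowest value came from Tie2-Ezh2-WT replicate 10 and the highest from Tie2-Ezh2-KO replicate 13, and the knockout groups overlapped the WT range. Group means of *Arid3a* ± SD, from high to low, were 1.72 ± 0.467 RPKM (Tie2-Ezh2-KO, n = 5), 1.67 ± 0.0761 RPKM (Vav-Ezh2-WT, n = 2), 1.39 ± 0.166 RPKM (Vav-Ezh2-KO, n = 5) and 1.14 ± 0.447 RPKM (Tie2-Ezh2-WT, n = 3), and the step between both Vav groups was the one wider than the larger SD of its pair. All 5 Vav-Ezh2-KO libraries lay below both Vav-Ezh2-WT libraries, with an exact two-sided permutation p of 0.0952, while the 5 WT libraries together gave a log2 change of 0.077 (SE 0.25, limma adjusted p = 0.956). In Tie2-Ezh2-KO the log2 change against WT was 0.33 (SE 0.29, limma adjusted p = 0.843). The interaction, which sets each knockout against its own WT, was 0.78 (SE 0.43, limma adjusted p = 0.849) for *Arid3a*, with an unadjusted p of 0.0856.

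The 8 genes were also counted beside the whole table. In Tie2-Ezh2-KO against WT, limma called 0 of 8, where 2.73% of the 14154 genes tested were called (343 higher and 43 lower), and 1 of 8 had an unadjusted p under 0.05, where 10.97% of all genes did. The median log2 change of the 8 was -0.11, from -0.37 for *Igf2bp1* to 0.64 for *Igf2bp2*, beside 0.011 over all genes tested. With a background of 2.73%, a count of 0 in 8 genes says nothing particular about them. In Vav-Ezh2-KO against the same WT libraries, limma called 0 of 8, where 0.00733% of 13646 genes were called, a share that stands for 1 gene, *Sva*, named here after its values were seen. At an unadjusted p under 0.05 there were 2 of the 8, *Lin28b* and *Igf2bp2*, both lower, beside 7.93% of all genes. In that comparison 7 of 8 estimates lay below 0, although those of *Hmga1*, *Hmga2* and *Igf2bp3* rose above 0 when libraries were scaled to a common median, and that of *Igf2bp3* also under quantile normalization, with a median of -0.11 beside -0.015 over all genes.

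Tie2-Ezh2-KO against Vav-Ezh2-KO asks directly whether the knockouts differ. Here limma called 1 of 8, *Igf2bp2*, against a background of 3.51% of 14120 genes tested (372 higher and 123 lower in Tie2-Ezh2-KO). The other 7 genes lay between -0.21 for *Hmga2* and 0.28 for *Lin28b*, and the median of the 8 was 0.024 beside 0.041 over all genes. The share of 1 in 8 is above the background, and with 8 genes 1 call cannot set the list apart from other genes. For the interaction, in which each knockout is set against its own WT, limma called 0 of 8, where 0.181% of 14394 genes were called. At an unadjusted p under 0.05 there were 0 of 8, beside 6.54% of all genes. The estimates of the interaction were wide, with standard errors from 0.26 for *Igf2bp3* to 0.72 for *Lin28a* on the log2 scale.

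**Figure D3:**
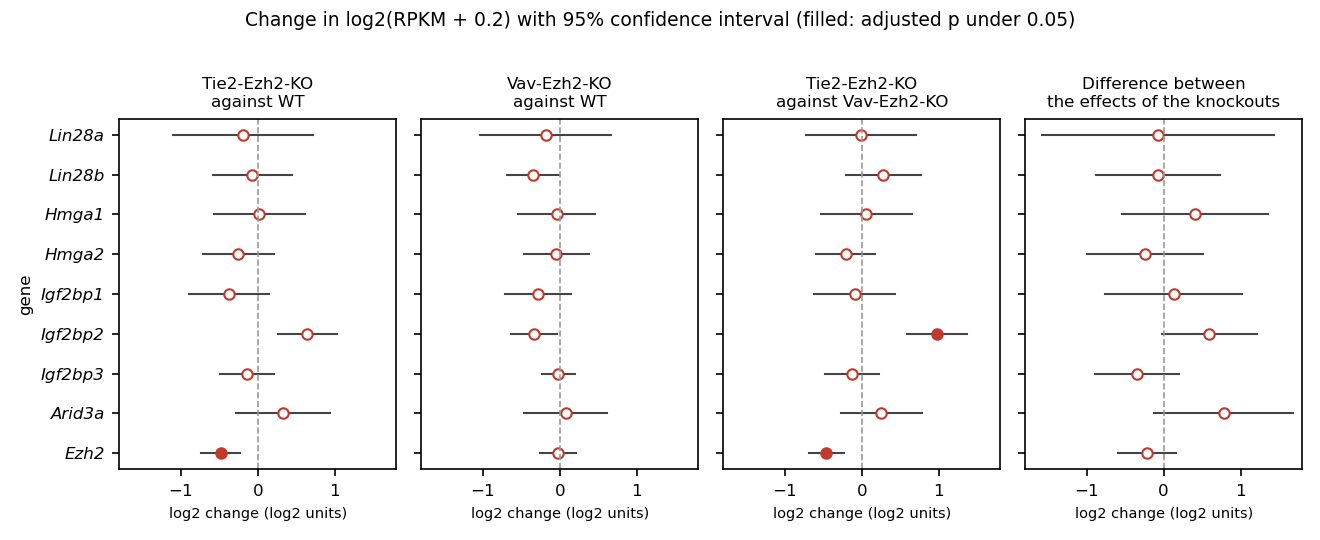
Log2 change of the 8 genes and of *Ezh2* in the 4 comparisons, from limma on log2(RPKM + 0.2); points are estimates, lines are 95% confidence intervals, and filled points have an adjusted p under 0.05. Of the 8 genes, *Igf2bp2* between the knockouts is filled; the comparisons with WT share the same 5 WT libraries.

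Several of the genes varied together from embryo to embryo. Tie2-Ezh2-KO replicate 13 held the highest value of all 15 libraries for 6 of 8 genes, *Lin28b*, *Hmga1*, *Igf2bp1*, *Igf2bp2*, *Igf2bp3* and *Arid3a*, and Tie2-Ezh2-KO replicate 9 held the lowest for 4 of 8, *Lin28b*, *Hmga1*, *Igf2bp1* and *Igf2bp3*. The 8 genes summed to 147 RPKM in replicate 13 and to 69.98 RPKM in replicate 9. The extremes of *Lin28b* and of all 3 IGF2BP genes within Tie2-Ezh2-KO came from this pair of libraries. Across the 15 libraries, *Lin28b* and *Igf2bp3* had a Pearson r of 0.72 on log2(RPKM + 0.2), a Spearman rho of 0.59, and an r of 0.84 after each group's mean had been removed. For *Igf2bp2* and *Igf2bp3* the r was 0.26 over all libraries and 0.86 after group means had been removed, a value pooled over groups of 2 to 5 libraries that includes the extremes of Tie2-Ezh2-KO named above. *Lin28a* and *Hmga2* gave 0.72 over all libraries and 0.74 after group means had been removed. *Hmga2* and *Igf2bp2* gave -0.27 over all libraries and -0.027 after group means had been removed. All 28 pairs were computed, and the points of each share library, depth and scaling.

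The genes whose pattern over the 15 libraries was most like each member's were sought among 9885 genes above a mean of 1 RPKM, by Pearson r of log2(RPKM + 0.2). They are named with no inference about shared function. *Lin28b* was most like *Kif5b* (r = 0.93), *Btaf1* (r = 0.93) and *Brd3* (r = 0.91). For *Igf2bp2* they were *Nt5dc2* (r = 0.93), *Tmtc4* (r = 0.92) and *Cask* (r = 0.91), and within groups the r with *Nt5dc2* was 0.78. Without the 2 libraries farthest from the median, the r of *Lin28b* with *Kif5b* was 0.84 and that of *Igf2bp2* with *Nt5dc2* was 0.94, whereas that of *Igf2bp3* with *Mprip* fell to 0.78 and those of *Arid3a* with *Brca2* and *Rbbp6* to 0.64 and 0.66, the lowest of all 21 pairs. *Igf2bp3* was most like *Mprip* (r = 0.94), *Ddx10* (r = 0.92) and *Nom1* (r = 0.92), and *Igf2bp1* most like *Patl1* (r = 0.94), *Epn1* (r = 0.92) and *Prcc* (r = 0.92). *Hmga2* had *Arid1a* (r = 0.88), *Tmem55a* (r = 0.85) and *Tial1* (r = 0.84), *Hmga1* had *Ctu1* (r = 0.93), *Ptgs1* (r = 0.92) and *Slc25a45* (r = 0.90), and *Arid3a* had *Brca2* (r = 0.83), *Mmgt1* (r = 0.80) and *Rbbp6* (r = 0.80). *Lin28a*, with a mean just under 1 RPKM, was left out by the rule.

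What the 8 genes share in sequence is the let-7 seed match. The 9 mature let-7 family miRNAs of the mouse, counting miR-98, have the same seed, GAGGUAG, so 1 motif serves all of them. Shown are let-7a as the type member, let-7d, let-7f and let-7i because a hairpin of each has a value in the table, and miR-98 as the member with another name. Capitals mark the seed, bases 2 to 8, in the mature sequences of RefSeq for GRCm38.p6.
let-7a-5p: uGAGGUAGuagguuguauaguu
let-7d-5p: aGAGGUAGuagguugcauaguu
let-7f-5p: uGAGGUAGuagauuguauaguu
let-7i-5p: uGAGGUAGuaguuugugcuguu
miR-98-5p: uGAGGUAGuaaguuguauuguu

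The match to this seed in an mRNA reads CTACCTC, and a stronger form ends in A, CTACCTCA. Annotated 3′ UTRs of GENCODE M21 on GRCm38, 1 transcript a gene, held CTACCTC in 8 of 8 members and CTACCTCA in 7 of 8. Of all 12484 tested genes with a 3′ UTR, 10.04% held the former and 3.43% the latter, and among 3427 genes with a 3′ UTR of 2000 bases or more the shares were 20.5% and 7.24%. *Lin28b*, *Hmga2* and *Igf2bp1* had 4 matches each, a number reached by 12 of the 12484 genes. *Lin28a* and *Arid3a* had 2, and *Hmga1*, *Igf2bp2* and *Igf2bp3* had 1. Several of the 8 genes are known as let-7 targets and the set was built around that axis, so the high share describes the choice of genes and was not tested. Shown is 1 match per gene, the CTACCTCA nearest the start of the 3′ UTR or, for *Hmga1*, its only CTACCTC, because these are the letters through which let-7 would act on the set. Each window has 30 bases on the strand of the gene, and capitals mark the match.
Lin28a (chr4:134005178-134005207, minus strand): agcctgttgaaCTACCTCAtttttgccgat
Lin28b (chr10:45381011-45381040, minus strand): gggcgggaagtCTACCTCAtgcaagcacag
Hmga1 (chr17:27563281-27563310, plus strand): ctgttcacaaaCTACCTCtggacggttgtg
Hmga2 (chr10:120364213-120364242, minus strand): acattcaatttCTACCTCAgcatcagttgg
Igf2bp1 (chr11:95961767-95961796, minus strand): tgcgaagtaaaCTACCTCAaggtgtgaagt
Igf2bp2 (chr16:22059462-22059491, minus strand): acaaataaaagCTACCTCAggtgtttttta
Igf2bp3 (chr6:49086776-49086805, minus strand): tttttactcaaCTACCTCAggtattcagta
Arid3a (chr10:79953899-79953928, plus strand): caagtttctttCTACCTCAggtcttttgat

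A match of letters is no proof of a site in use. Genes tested in Tie2-Ezh2-KO against WT with 2 or more matches had a median log2 change of -0.021 over 150 genes, with 0 called higher and 1 lower by limma. Genes with 1 match had a median of 0.013 over 1104 genes, with 30 higher and 3 lower, and genes without one had a median of 0.013 over 11230 genes, with 299 higher and 31 lower. The difference between these sets was not tested. *Igf2bp2*, the member called between the knockouts, carries 1 match, and *Lin28b*, *Hmga2* and *Igf2bp1*, with 4 matches each, were not called.

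Let-7 itself could not be read from these libraries, since mature miRNAs are too short for the method. Of 12 let-7 hairpin genes, 3 had a value, and these were at 0 RPKM in 4 of 5 WT, 5 of 5 Tie2-Ezh2-KO and 2 of 5 Vav-Ezh2-KO libraries and summed to at most 0.486 RPKM in a WT library and 2.11 RPKM in a Vav-Ezh2-KO library. Of 20 genes for processing, loading and decay of let-7, among them *Drosha*, *Dicer1* and the *Tut4* and *Dis3l2* genes that act with LIN28, 19 had a value and limma called 0 in either knockout against WT, with 0 at an unadjusted p under 0.05 in each. Their median log2 change was -0.020 in Tie2-Ezh2-KO and 0.042 in Vav-Ezh2-KO. *Tarbp2*, a partner of Dicer, and *Xpo5*, the exporter of miRNA precursors, were the most abundant of them in WT, at 61.9 ± 6.01 RPKM (SD, n = 5) and 20.7 ± 8.50 RPKM (SD, n = 5). Their WT groups did not overlap between the Cre lines, with means of 14.9 and 29.3 RPKM of *Xpo5* and 57.8 and 68.1 RPKM of *Tarbp2* in Tie2-Ezh2-WT and Vav-Ezh2-WT. With 3 libraries against 2, the smallest exact two-sided permutation p is 0.100, and the share of all genes that separate so was not counted. For both genes each Vav-Ezh2-KO library was lower than either Vav-Ezh2-WT library (exact two-sided permutation p = 0.0476 for each, the smallest that 21 ways allow). Against the 5 WT libraries the sign for *Xpo5* was the other one, with a log2 change in Vav-Ezh2-KO of 0.17 (limma adjusted p = 0.862). That of *Tarbp2* was -0.12 (limma adjusted p = 0.757). With 2.73% and 0.00733% of all genes called in these comparisons, 0 of 19 called does not set the list apart. Unadjusted, 10.97% and 7.93% of all genes had a p under 0.05, beside 0 of 19 in each comparison. That difference was not tested.

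Known let-7 targets outside the 8 genes were called in both directions. Of 36 listed, Tie2-Ezh2-KO against WT, where 2.73% of all genes were called, gave 1 called higher, *Ccnd1* with a log2 change of 1.46 (SE 0.27, limma adjusted p = 0.00740), and 1 lower, *Il6* with -2.04 (SE 0.45, limma adjusted p = 0.0221). The list had a median of -0.016 beside 0.011 over all genes. Between the knockouts, where 3.51% of all genes were called, 3 of 36 were higher in Tie2-Ezh2-KO than in Vav-Ezh2-KO, *Mycn* with 1.48 (SE 0.23, limma adjusted p = 0.00223), *Ccnd1* with 2.01 (SE 0.36, limma adjusted p = 0.00548) and *E2f6* with 0.49 (SE 0.12, limma adjusted p = 0.0386), and 0 lower. In Vav-Ezh2-KO against WT, where 0.00733% of all genes were called, limma called 0 of 35 tested. At an unadjusted p under 0.05 were 8 of 36 in Tie2-Ezh2-KO (10.97% of all genes), 3 of 35 in Vav-Ezh2-KO (7.93%) and 10 of 36 between the knockouts (16.6%). *Mycn* was 1 of the 3, with -1.36 (SE 0.22, limma adjusted p = 0.130) and each Vav-Ezh2-KO library lower than any WT library (exact two-sided permutation p = 0.00794), beside 0.13 (SE 0.22, limma adjusted p = 0.940) in Tie2-Ezh2-KO. The call of *Il6* was lost in 5 of 10 alternative analyses (adjusted p up to 0.102) and that of *E2f6* in 3 of 9 (up to 0.103), and without single libraries they reached 0.0637 and 0.0999.

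Other genes of fetal or embryonic blood were read beside the 8, and the difference between the lists was not tested. This list was chosen with earlier results of these data known, so its counts of calls describe the choice and are no test of it. Of 8 with a value, Tie2-Ezh2-KO against WT, with 2.73% of all genes called, gave 2 called higher, the embryonic globins *Hbb-bh1*, with a log2 change of 1.18 (SE 0.29, limma adjusted p = 0.0441), and *Hba-x*, with 6.33 (SE 0.62, limma adjusted p = 8.88e-05). The former call was lost in 7 of 11 alternative analyses (adjusted p up to 0.246, with WT of the same Cre line), and the latter in 1 of 11, limma-voom (0.0787). In Vav-Ezh2-KO against WT limma called 0 of 8 (0.00733% of all genes), with 2 at an unadjusted p under 0.05 (7.93% of all genes), the imprinted genes *H19* and *Dlk1*, with log2 changes of -1.21 (unadjusted p = 0.00249) and -2.41 (unadjusted p = 0.000497), beside 0.48 and 0.47 in Tie2-Ezh2-KO. Each of the 5 Vav-Ezh2-KO libraries was lower in *Dlk1* than any WT library, and 4 of 5 were so in *H19*. The list's median was 0.56 in Tie2-Ezh2-KO and -0.25 in Vav-Ezh2-KO. Between the knockouts 4 of 8 were called, with 3.51% of all genes, and were higher in Tie2-Ezh2-KO than in Vav-Ezh2-KO, these globins by 1.29 and 5.64 and *H19* and *Dlk1* by 1.70 and 2.88 on the log2 scale. Of 7 tested genes of adult-type blood or of the switch to it, limma called 0 in either knockout against WT, with 2 and 0 at an unadjusted p under 0.05 (10.97% and 7.93% of all genes), and 1, *Nfix*, higher in Tie2-Ezh2-KO than in Vav-Ezh2-KO with 1.17 (SE 0.28, limma adjusted p = 0.0306). For *Hbb-bh1* all 3 Tie2-Ezh2-WT libraries lay above both Vav-Ezh2-WT libraries, and its interaction was 0.60 (SE 0.52, limma adjusted p = 0.978). The interactions of *H19* and *Dlk1* were 1.46 and 2.74 (limma adjusted p = 0.582 and 0.415). That of *Hba-x* was 6.41 (limma adjusted p = 0.0457), a call lost in 8 of 9 alternative analyses. It was the 1 of 8 called in this fetal list (0.181% of all genes), with 4 of 8 at an unadjusted p under 0.05 (6.54% of all genes). The call of *Hbb-bh1* between the knockouts was lost in 3 of 9 alternative analyses (adjusted p up to 0.0922) and that of *Nfix* in 1 of 9, quantile normalization (0.0542). Without single libraries the adjusted p reached 0.101 for *Hbb-bh1* against WT and 0.0736 for *Nfix*.

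RNAs that IGF2BP proteins are known to bind were read beside their binders. Of 8 tested, limma called 0 in either knockout against WT, with 1 and 2 at an unadjusted p under 0.05, and medians of -0.10 and -0.18. Over all genes 2.73% and 0.00733% were called in these comparisons, and 10.97% and 7.93% were under 0.05 unadjusted. Between the knockouts, with 3.51% of all genes called, 1 of 7 was called, *H19*, which was higher in Tie2-Ezh2-KO, as was *Igf2bp2*. *Myc*, whose mRNA IGF2BP1 stabilizes, stood at 208 ± 25.3 RPKM (SD, n = 5) in WT, 173 ± 27.3 RPKM (SD, n = 5) in Tie2-Ezh2-KO and 172 ± 14.4 RPKM (SD, n = 5) in Vav-Ezh2-KO. Of the other 5 subunits of PRC2 listed beside *Ezh2*, 0 were called by limma in Tie2-Ezh2-KO against WT, with 1 at an unadjusted p under 0.05, and *Rbbp4* was lower than in Vav-Ezh2-KO, with -0.76 (SE 0.13, limma adjusted p = 0.00478). Against WT *Rbbp4* was at -0.41 in Tie2-Ezh2-KO and 0.35 in Vav-Ezh2-KO on the log2 scale, called in neither. The interaction of *Rbbp4* was -0.16 (SE 0.21, limma adjusted p = 0.990), and all 3 Tie2-Ezh2-WT libraries lay below both Vav-Ezh2-WT libraries, by -0.60 in the mean on that scale, so for *Rbbp4* too Cre line and knockout cannot be told apart.

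Markers of other cell types moved with some of these values, and their part in them was not tested. The study's antibodies for sorting include TER119 and F4/80, which mark red cells and macrophages, so a lineage cocktail that held them would remove such cells where they carry these proteins. The 6 primitive erythroid markers all had a value, with *Hbb-bh1* the most abundant by group mean. Limma called 2 of 6 higher in Tie2-Ezh2-KO against WT (2.73% of all genes) and against Vav-Ezh2-KO (3.51%). These were the globins *Hbb-bh1* and *Hba-x* each time, and 4 were not called. The globins made up much of the sum, as with *Hbb-bh1* at 508 RPKM in Tie2-Ezh2-KO replicate 11 and *Hba-x* at 305 RPKM in replicate 9. The 6 markers summed to 175, 149 and 168 RPKM in Tie2-Ezh2-WT and 96.3 and 143 RPKM in Vav-Ezh2-WT. In Tie2-Ezh2-KO they summed to 353, 615, 894, 231 and 321 RPKM, above all other libraries, and in Vav-Ezh2-KO to 109.8, 159, 85.8, 181 and 179 RPKM. *Igf2bp2* was highest in the same group, and over the 15 libraries its Pearson r with this sum was 0.63, its Spearman rho 0.72 and its r without the 2 farthest libraries 0.72. Within Tie2-Ezh2-KO the libraries with the highest erythroid sums, replicates 11 and 9, had 51.5 and 28.2 RPKM of *Igf2bp2*, the latter the lowest of the group. Replicate 13, with the lowest erythroid sum of the group, at 231 RPKM, had its highest level of *Igf2bp2*, at 59.8 RPKM. The 11 visceral endoderm markers, with *Apoa1* the most abundant by group mean, summed to 174, 4.18 and 1.85 RPKM in Tie2-Ezh2-WT, 4.02 and 7.00 in Vav-Ezh2-WT, 253, 12.9, 5.27, 6.06 and 13.5 in Tie2-Ezh2-KO and 2.69, 5.25, 4.42, 4.82 and 3.08 in Vav-Ezh2-KO. Over the 15 libraries *Arid3a* had a Pearson r of 0.37 with this visceral endoderm sum, a Spearman rho of 0.76 and an r of 0.54 without the 2 farthest libraries. Tie2-Ezh2-WT replicate 4 and Tie2-Ezh2-KO replicate 7 stood far above the rest in this sum, with *Afp*, the serum protein of this layer, at 48.2 and 59.9 RPKM. With both libraries left out, a choice made after seeing the data, the log2 change of *Igf2bp2* in Tie2-Ezh2-KO against WT was 0.71 (limma adjusted p = 0.164) and that of *Lin28b* was 0.078 (adjusted p = 0.977). Of this list limma called 1 of 9 tested, *Amn*, higher in Tie2-Ezh2-KO against WT, where 2.73% of all genes were called. The log2 change of *Amn* was 3.01 (SE 0.45, limma adjusted p = 0.00155), at 4.66, 1.67, 1.52, 2.08 and 2.21 RPKM in the Tie2-Ezh2-KO libraries. *Amn* was at 0 in Tie2-Ezh2-WT replicates 10 and 12 and Vav-Ezh2-WT replicate 4. It was also at 0 in Vav-Ezh2-KO replicates 1, 9, 26 and 28. In these libraries the 0.2 RPKM added before the log sets its value. Between the knockouts, where 3.51% of all genes were called, *Amn* was again the 1 of 9 called. It was higher in Tie2-Ezh2-KO by 3.42 (SE 0.33, limma adjusted p = 0.000149). Over the alternative analyses other than leaving out a library, both calls of *Amn* held, but their size varied. The log2 change ran from 1.51 to 5.78 against WT and from 1.66 to 6.61 between the knockouts.

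Endothelial markers, 6 of 7 with a value and *Pecam1* the most abundant in WT, summed to 36.8, 42.0 and 40.8 RPKM in Tie2-Ezh2-WT, 38.5 and 42.5 in Vav-Ezh2-WT, 37.8, 37.9, 42.3, 48.1 and 35.8 in Tie2-Ezh2-KO and 41.7, 38.6, 24.9, 54.9 and 29.9 in Vav-Ezh2-KO. The groups overlapped for these markers, and limma called 0 of 6 in either knockout against WT, with 2 and 0 at an unadjusted p under 0.05. The estimates of this pair in Tie2-Ezh2-KO had opposite signs, -0.62 for *Pecam1* (limma adjusted p = 0.150) and 0.38 for *Esam* (adjusted p = 0.414) on the log2 scale, and neither was called. Between the knockouts limma called 0 of 6, with 3 at an unadjusted p under 0.05. Over all genes, 2.73%, 0.00733% and 3.51% were called in these 3 comparisons, and 10.97%, 7.93% and 16.6% had such an unadjusted p. The medians of the endothelial list were 0.26, -0.24 and 0.44. The 8 mesenchyme and 6 macrophage markers summed to at most 2.92 and 5.39 RPKM in a library, with *Pdgfrb* and *Cx3cr1* the most abundant by group mean, and *C1qa* was at 0 in all 15. Of 6 germ cell and pluripotency markers, the setting in which *Lin28a* is best known, 3 had a value, and *Nanog* made up nearly all of their sum of 26.4 to 70.7 RPKM in a library. *Prdm14* was above 0 in Tie2-Ezh2-WT replicates 4 and 12 only, and *Zfp42* in Tie2-Ezh2-WT replicate 4 only. *Pou5f1*, *Dppa3* and *Sox2* had no value. The sum thus rests on *Nanog* and does not show the marker list as a whole.

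The 8 genes lie on 6 chromosomes of GRCm38, and *Lin28b* (chr10:45376617-45486314), *Hmga2* (chr10:120361268-120476469) and *Arid3a* (chr10:79927043-79955018) share chromosome 10. *Igf2bp3* (chr6:49085218-49215469) lies on chromosome 6 with *Ezh2*, 1489947 bases from it. The others are *Lin28a* (chr4:134003330-134019196), *Hmga1* (chr17:27556574-27563672), *Igf2bp1* (chr11:95957163-96005944) and *Igf2bp2* (chr16:22059009-22163299). *Igf2bp3* overlaps *Malsu1*, and *Hmga2* overlaps *9230105E05Rik*, both of which have values in the table. The library kit did not mark the strand, so reads from shared bases could belong to either gene of a pair.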

How the data were processed

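RNA-seq of sorted E10.5 YS EMPs was taken as deposited. The authors aligned 75-base single-end reads to GRCm38 (mm10) with TopHat2 2.0.13, kept 1 alignment per read, counted reads per gene with featureCounts and deposited RPKM on a linear scale for 17454 genes. Labels give 500 cells per library and the paper's methods give a smaller number. The experiments that libraries came from are not assigned, so no batch term was used. Reads were recovered from the steps between RPKM values, which gave whole reads, within 0.0001 of a read, for each of 16877 genes above 0. cDNA was amplified by 16 cycles of PCR, so reads are not independent molecules. Genes that exceeded 0.2 RPKM in 1 or more libraries of a comparison were tested with limma 3.58.1 in R 4.3.3 (lmFit, eBayes with trend) on log2(RPKM + 0.2), with Benjamini-Hochberg adjustment over all genes tested and a threshold of 0.05. WT means the 5 libraries without Cre. The interaction compared both knockout effects, each against its own WT, over 4 groups. Single genes were also tested by two-sided exact permutation over libraries in Python 3.11.15 with scipy 1.17.1. The code was tested on simulated data. The members and lists were chosen with earlier results of these data known, and 1 planned list of markers is not reported here. Named beside the 8 members and *Ezh2* were, from each list, genes past the threshold and some of the 2 most abundant in WT, and the 3 genes most like each member. Alternatives covered pseudocounts, filters, normalization, the model, the WT libraries used and leaving out each library.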

Additional observations from a re-analysis of the deposited data

Results flagged for a closer look

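In groups of 5 libraries, a library was singled out when its gap to the nearest other library exceeded the share of the group's range that Dixon's test allows at 95%. Chance alone does this in about 1 in 20 groups, and 4 libraries were singled out in 48 groups of values checked. For 1 of the 8 genes this occurred: *Igf2bp1* was at 6.37 RPKM in Tie2-Ezh2-WT replicate 12, with the other 4 WT libraries from 10.1 to 11.4 RPKM. Summed visceral endoderm markers were at 174 RPKM in Tie2-Ezh2-WT replicate 4, with the other WT libraries from 1.85 to 7.00 RPKM, and at 253 RPKM in Tie2-Ezh2-KO replicate 7, with the others of its group from 5.27 to 13.5 RPKM. Macrophage markers summed to 3.95 RPKM in Vav-Ezh2-WT replicate 6, with the other WT libraries from 1.41 to 1.79 RPKM. The effects of both knockouts, each against its own WT, differed for *Hba-x*, at 6.41 on the log2 scale (limma adjusted p = 0.0457). That call was lost in 8 of 9 alternative analyses (adjusted p up to 0.730). Of the 8 genes 0 were called, beside 0.181% of all genes. At an unadjusted p under 0.05 there were 0 of the 8, beside 6.54% of all genes.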

How the results depend on the processing

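The call of *Igf2bp2* between the knockouts held in each alternative run, with a log2 difference from 0.94 to 1.01 (limma adjusted p from 0.00272 to 0.0338), and without any 1 library it ran from 0.87 to 1.14 (adjusted p from 0.000531 to 0.0237). Against WT in Tie2-Ezh2-KO it became 1 of 8 called when libraries were scaled to a common median (adjusted p = 0.0360), when all 15 libraries shared a fit (0.0481) and without Tie2-Ezh2-KO replicate 9 (0.00511); over all alternatives but leaving out a library its adjusted p ran from 0.0360 to 0.486, and the count of called members ran from 0 to 1 without any 1 library. *Ezh2* stayed lower in Tie2-Ezh2-KO against WT but missed the threshold without trend, with a common median, with limma-voom, with WT of its own Cre line and with both libraries high in visceral endoderm markers left out (adjusted p up to 0.344), and without any of Tie2-Ezh2-WT replicates 4 and 10, Vav-Ezh2-WT replicates 4 and 6 and Tie2-Ezh2-KO replicates 7, 11 and 17 (up to 0.126). The count of 386 genes in Tie2-Ezh2-KO against WT became 240 among genes above a mean of 1 RPKM, of which fewer were tested, 187 with its own WT and 217 with the visceral endoderm libraries left out, a setting chosen after seeing the data. The 1 gene of Vav-Ezh2-KO against WT became 0 with limma-voom and 2 with its own WT, and 1 to 2 without any 1 library (2 without Tie2-Ezh2-WT replicates 10 or 12 or Vav-Ezh2-WT replicate 4). Between the knockouts the 495 genes became 320 without Vav-Ezh2-KO replicate 28 and 969 without Tie2-Ezh2-KO replicate 9, and the split of 372 higher and 123 lower became 334 and 191 under quantile normalization. The 26 genes of the interaction became 16 without a filter, 10 above a mean of 1 RPKM, 12 under quantile normalization, 12 with a common median, 2 with limma-voom and 9 with the visceral endoderm libraries left out, and 8 to 32 without any 1 library, with 8 to 17 without each library other than replicates 9 and 13 of Tie2-Ezh2-KO and 9 and 26 of Vav-Ezh2-KO. Members that were not called changed sign as follows. In Tie2-Ezh2-KO against WT, *Lin28a* was 0.19 with limma-voom, *Lin28b* 0.078 without the visceral endoderm libraries, and *Hmga1* -0.11 under quantile normalization and -0.039 without those libraries. In Vav-Ezh2-KO against WT, limma-voom gave 0.24 for *Lin28a* and 0.081 for *Hmga2*, a common median gave 0.00187 for *Hmga1*, 0.00529 for *Hmga2* and 0.032 for *Igf2bp3*, quantile normalization gave 0.030 for *Igf2bp3*, and the own WT gave 0.12 for *Igf2bp3* and -0.24 for *Arid3a*. Between the knockouts *Lin28a* was 0.00289 with a pseudocount of 1 and *Hmga1* -0.072 under quantile normalization. In the interaction *Lin28a* was 0.60 with limma-voom and 0.11 without the visceral endoderm libraries, and *Lin28b* 0.065 and 0.10. Leaving out 1 library gave, in Tie2-Ezh2-KO against WT, -0.53 to 0.030 for *Lin28a*, -0.26 to 0.12 for *Lin28b*, -0.11 to 0.16 for *Hmga1* and -0.25 to 0.000480 for *Igf2bp3*. In Vav-Ezh2-KO against WT it gave -0.52 to 0.040 for *Lin28a*, -0.11 to 0.071 for *Hmga1*, -0.21 to 0.079 for *Hmga2*, -0.075 to 0.030 for *Igf2bp3* and -0.074 to 0.17 for *Arid3a*. Between the knockouts it gave -0.21 to 0.14 for *Lin28a*, -0.066 to 0.20 for *Hmga1*, -0.30 to 0.049 for *Igf2bp1* and -0.24 to 0.017 for *Igf2bp3*, and in the interaction -0.76 to 0.38 for *Lin28a*, -0.26 to 0.11 for *Lin28b* and -0.13 to 0.27 for *Igf2bp1*. Calls of other named genes were lost without single libraries as follows. *Il6* lost it without Vav-Ezh2-WT replicate 4 or Tie2-Ezh2-KO replicates 7, 11 or 17 (adjusted p up to 0.0637). *Hbb-bh1* against WT kept it without Tie2-Ezh2-KO replicates 13 or 17 only (up to 0.101), and between the knockouts lost it without Tie2-Ezh2-KO replicates 7 or 11 or Vav-Ezh2-KO replicates 1, 9 or 10 (up to 0.0736). Between the knockouts, *E2f6* kept it without replicate 9 of either group only (up to 0.0999), *Nfix* lost it without Tie2-Ezh2-KO replicates 7, 13 or 17 or Vav-Ezh2-KO replicates 1, 26 or 28 (up to 0.0736), *Gfi1b* without Tie2-Ezh2-KO replicates 7 or 11 or Vav-Ezh2-KO replicates 1, 9, 10 or 28 (up to 0.0833), and *Ezh2* without Tie2-Ezh2-KO replicates 7, 11 or 17 or Vav-Ezh2-KO replicates 9, 10 or 26 (up to 0.0784). Under other alternatives the call was also lost for *Il6* with a pseudocount of 1, no filter, limma-voom, its own WT or the visceral endoderm libraries left out (up to 0.102), *Hbb-bh1* against WT in 7 of 11 (up to 0.246), *Hba-x* against WT with limma-voom (0.0787), and, between the knockouts, *E2f6*, *Hbb-bh1* and *Gfi1b* with no filter, without trend or with a common median (up to 0.103, 0.0922 and 0.205), *Nfix* under quantile normalization (0.0542) and *Ezh2* without trend (0.0695). In the interaction *Hba-x* lost it in 8 of 9 alternatives, all but a pseudocount of 1 (up to 0.730, with limma-voom), and kept it among single libraries only without Tie2-Ezh2-KO replicates 7 or 13 or Vav-Ezh2-KO replicates 9 or 26 (up to 0.390). Apart from the smaller number of genes tested above 1 RPKM, the cause was not tested. No paired analysis was run, because the labels do not pair libraries of different groups, and a shared replicate number is no pairing.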
